A study of Mus musculus with 18 samples.

Results

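AP-1 is a family of transcription factors whose subunits belong to the Fos and Jun families, and 6 of these subunits, Fos, Fosb, Fosl2, Jun, Junb and Jund, are described here in blood progenitors of the mouse with and without a mutated Dnmt1. They are 6 of the 29717 gene symbols in the deposited count tables and were found by symbol in all 18 libraries. The set was chosen by a reading of the mutant-versus-control differences in these same libraries, so the genotype differences of its members are given as a description, without p-values, and the number past the threshold of the fit over all genes is given only beside its background. Cells came from lineage-negative bone marrow of BALB/c mice and were sorted as HSC (haematopoietic stem cells in common usage), MPP1 and MPP4 (multipotent progenitors, the latter lymphoid-primed in common usage). Controls are labelled wt, with 3 HSC, 2 MPP1 and 4 MPP4 libraries. Mutants are labelled dnmt1-/- in the same numbers, while the series text speaks of a specific mutation modelled on hypomorphic missense changes in fish, so the label is not read as a null allele here. Dnmt1 encodes the maintenance methyltransferase, which restores methylation after replication. Its transcript was present in every library, at 97.8 to 391 CPM (counts scaled to a common library total) in controls and 118 to 320.5 CPM in mutants. Such a level does not check a missense change. The labels do not say how many animals each library comes from.

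The libraries were made by CEL-Seq2, which primes at the poly(A) tail and tags each captured molecule, so that a count stands near the 3′ end of a transcript and does not grow with its length. The libraries held between 354642 and 1943562 counts (median 745850.5). All levels below are in CPM on 1 scale over the 18 libraries, and each is compared within a gene. Libraries are named by population, genotype and replicate number, and 8 ID numbers in the column names, 4 per genotype, link libraries of different populations. Flt3, a surface receptor of lymphoid-primed progenitors, was at 391 to 509.5 CPM in MPP4 controls and at 21.6 to 39.1 CPM in HSC controls, and Slamf1, a stem cell marker, was at 0 to 11.7 and 26.1 to 89.1 CPM, respectively. In 6 libraries the summed level of 12 erythroid, 10 neutrophil or 13 B cell markers passed 3000 CPM: HSC control 1 (B cell, 34945 CPM), HSC mutant 1 (erythroid, 14923 CPM, and neutrophil, 3057 CPM), MPP1 control 2 (erythroid, 32037 CPM, and neutrophil, 8435 CPM), MPP4 control 4 (erythroid, 43744 CPM, neutrophil, 5175 CPM, and B cell, 3459 CPM), MPP4 mutant 2 (erythroid, 235166 CPM, and neutrophil, 36259 CPM) and MPP4 mutant 3 (B cell, 12197 CPM). In the other 12 libraries the erythroid sum stayed between 363 and 964 CPM.

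Fos proteins cannot pair with each other and bind DNA only as partners of a Jun protein, whereas Jun proteins also pair among themselves. The pairs bind the TPA response element, and Jun pairs with ATF factors bind the related cAMP response element. Fos, Fosb, Jun and Junb are classical immediate early genes: growth factors, cytokines and stress switch them on within minutes through kinases that act on factors already sitting on their promoters, and the transcripts are short-lived. Jund is made at a steadier level, and Junb is known in stem cells of the marrow as a brake on proliferation.

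The promoters of the 4 immediate early members are shown because their induction is known to run through short elements just before the start, and no motif searched here was found in all 4. Each line gives the 250 bases before the RefSeq start on GRCm38.p6, read 5′ to 3′ on the strand of the gene. Capitals mark TGACG, the core of the cAMP response element, or in Jun the site TGACATCA, and in Fos also the TATAAA box.
Fos: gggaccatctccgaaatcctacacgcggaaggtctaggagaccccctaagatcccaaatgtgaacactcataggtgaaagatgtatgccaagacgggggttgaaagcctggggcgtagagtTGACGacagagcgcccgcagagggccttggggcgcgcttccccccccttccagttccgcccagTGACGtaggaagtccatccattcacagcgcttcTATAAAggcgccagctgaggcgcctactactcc
Fosb: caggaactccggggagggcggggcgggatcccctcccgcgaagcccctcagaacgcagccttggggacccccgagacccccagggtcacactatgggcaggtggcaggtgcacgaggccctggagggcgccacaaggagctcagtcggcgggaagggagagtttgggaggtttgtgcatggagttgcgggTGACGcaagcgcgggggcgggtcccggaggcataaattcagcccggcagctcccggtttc
Jun: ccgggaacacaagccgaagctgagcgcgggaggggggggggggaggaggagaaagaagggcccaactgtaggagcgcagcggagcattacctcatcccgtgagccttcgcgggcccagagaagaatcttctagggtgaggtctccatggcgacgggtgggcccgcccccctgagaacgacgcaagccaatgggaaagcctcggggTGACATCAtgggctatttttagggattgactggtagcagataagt
Junb: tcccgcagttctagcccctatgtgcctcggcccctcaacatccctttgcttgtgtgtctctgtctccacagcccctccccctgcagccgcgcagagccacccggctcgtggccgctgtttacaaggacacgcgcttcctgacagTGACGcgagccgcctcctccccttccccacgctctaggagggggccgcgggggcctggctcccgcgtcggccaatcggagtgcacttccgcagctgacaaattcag

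The Fos window is chr12:85473640-85473889 on the plus strand, and Fos itself (ENSMUSG00000021250.13) spans 85473890 to 85477273 of chromosome 12. Fosb (ENSMUSG00000003545.3) lies on the minus strand of chromosome 7 from 19302696 to 19310051, and its window is chr7:19310046-19310295. Jun (ENSMUSG00000052684.4) lies on the minus strand of chromosome 4 from 95049034 to 95052222, and its window is chr4:95052223-95052472. Junb (ENSMUSG00000052837.6) lies on the minus strand of chromosome 8 from 84974484 to 84978718, with the window chr8:84978749-84978998. Jund (ENSMUSG00000071076.6, chromosome 8, 70698949 to 70700616, plus strand) and Fosl2 (ENSMUSG00000029135.10, chromosome 5, 32135801 to 32157842, plus strand) complete the set, and for these 2 genes no window is shown. The RefSeq window of Jund runs from 70697489 to 70697738. It stops well short of the GENCODE start at 70698949 and so may not hold the promoter of that start. That of Fosl2, from 32136222 to 32136471, lies inside the GENCODE gene. Both strands of each window were searched for the full cAMP response element (TGACGTCA), whose first letters are TGACG and which therefore also counts for that shorter motif. The TPA response element (TGANTCA) and the variant site TGACATCA were searched in the same way, as were the TATAAA box, the CCAAT box, the GC box (GGGCGG) and the CArG box that serum response factor binds. TGACG stood 129 to 125 and 66 to 62 bases before the start of Fos, 60 to 56 bases before Fosb and 106 to 102 bases before Junb. In all 32851 RefSeq windows of the same length, 17.8% held TGACG on either strand. Jun held TGACATCA 45 to 38 bases before its start, as 2.93% of all windows did. TATAAA, 33 to 28 bases before the start of Fos, was in 12.4% of all windows. Jun and Junb held CCAAT 65 to 61 and 36 to 32 bases before the start, as 33.8% of windows did. GGGCGG, in 32.7% of windows, was found in Fos, Jun, Fosl2 and at 3 places in Fosb. The full cAMP response element, the TPA response element and the CArG box were not in these letters of any member's window. Sites farther before the start than the window reaches were not searched, so this does not show that a gene lacks them. CpG dinucleotides, the sites of DNA methylation, numbered 15 in Fos, 19 in Fosb, 15 in Jun, 20 in Junb, 23 in Fosl2 and 3 in Jund, against a median of 6 over all windows. The Jund window stops short of the GENCODE start, so its CpG count and its lack of motifs are not read as traits of the Jund promoter. These matches describe the letters of the windows. DNA methylation was not part of the files used here.

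Fos, the founding member of its family, was higher in every mutant library than in every control library of all 3 populations. In HSC the controls 1 to 3 had 202, 92.7 and 97.0 CPM and the mutants 1 to 3 had 448, 390.2 and 509.8 CPM. In MPP1 the controls had 67.5 and 95.7 CPM and the mutants 697 and 401 CPM. In MPP4 the 4 controls had 85.3, 102, 84.4 and 125 CPM and the 4 mutants 228, 627, 454 and 423 CPM. HSC control 1 was the highest control, MPP4 mutant 1 the lowest mutant, and the gap between these was small beside the spread within either genotype. The fitted mutant-minus-control difference was 1.84 ± 0.26 (log2, SE) in HSC, a 3.59-fold higher level, 2.78 ± 0.29 in MPP1 (6.89-fold) and 2.06 ± 0.24 in MPP4 (4.17-fold). Within single batches it ran from 1.14 in HSC batch A, with 1 library per genotype, to 2.68 in MPP1 batch C, and batch A gave the lowest value in MPP4 too, 1.39. These are bulk libraries, in which fewer cells of a type and less RNA per cell cannot be told apart.

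Jun, the partner that lets Fos bind DNA, showed the same order of genotypes with a smaller difference. In HSC the controls had 246, 323 and 202 CPM and the mutants 609, 559.5 and 988 CPM. In MPP1 the controls had 377 and 114 CPM and the mutants 851 and 697 CPM. In MPP4 the controls had 147, 129, 211 and 129 CPM and the mutants 389, 434, 903 and 378 CPM. All 9 mutant libraries lay above all 9 controls, though barely: the lowest mutant, MPP4 mutant 4, had 377.5 CPM and the highest control, MPP1 control 1, had 377.4 CPM. The fitted difference was 1.45 ± 0.26 (log2, SE) in HSC (2.73-fold), 1.64 ± 0.53 in MPP1 (3.11-fold) and 1.72 ± 0.27 in MPP4 (3.29-fold), and within batches it lay between 1.30 and 1.88. The 2 MPP1 controls lay far apart: the difference was 2.75 without control 1 and 1.05 without control 2, the library rich in erythroid and neutrophil markers. In MPP4 it was 1.12 without the 3 libraries of that population named above, against 1.72 with them.

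Fos and Jun were 2 of 9 genes, among 10613 that passed the filter on low counts over all libraries, whose 9 mutant libraries all lay above the 9 controls, which is 0.0848% of these genes, and 0 genes had all mutants below. The other 7 were 3830403N18Rik, Gm128, Rapgefl1, Slc25a31, Xlr3a, Xlr4a and Xlr4c, listed here after their values were seen, and their highest control library was at 0 to 11.1 CPM. Since this order of genotypes is what the set was chosen with, nothing is read from the 2 members among the 9.

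Fosb, a close relative of Fos, had its lowest mean in MPP4 in either genotype. In HSC the controls had 53.8, 61.8 and 67.4 CPM and the mutants 105, 221 and 396 CPM. In MPP1 the controls had 78.6 and 71.8 CPM and the mutants 426 and 264 CPM. In MPP4 the controls had 10.97, 15.6, 21.1 and 54.7 CPM and the mutants 31.6, 118, 426 and 134 CPM. Controls were tightly grouped in HSC and MPP1, and the genotypes did not overlap there. In MPP4 they overlapped, because mutant 1 was below control 4. The fitted difference was 1.84 ± 0.29 (log2, SE) in HSC (3.57-fold), 2.19 ± 0.27 in MPP1 (4.56-fold) and 2.69 ± 0.55 in MPP4 (6.46-fold), the last 2.19 without the libraries rich in other lineage markers. Mutant 1 was the lowest mutant in both HSC and MPP4, and both these libraries carry the same ID number and are of batch A, where the difference was 0.94 and 1.36.

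Jund had smaller genotype differences than Fos, Fosb and Jun. In HSC the controls had 199, 173 and 234 CPM and the mutants 177, 268 and 436 CPM. In MPP1 the controls had 179 and 151 CPM and the mutants 356 and 210.0 CPM. In MPP4 the controls had 47.5, 45.4, 119 and 203 CPM and the mutants 107, 236, 403 and 143.3 CPM. Genotypes overlapped in HSC and MPP4 and did not in MPP1. The fitted difference was 0.46 ± 0.26 (log2, SE) in HSC, 0.77 ± 0.26 in MPP1 and 1.27 ± 0.46 in MPP4, the last 0.70 without the libraries rich in other lineage markers, and in HSC batch A the mutant was lower, by a difference of -0.17.

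Junb, which counters Jun on several promoters, overlapped between genotypes in HSC and MPP4. In HSC the controls had 57.0, 70.0 and 119 CPM and the mutants 93.3, 52.4 and 122 CPM. In MPP1 the controls had 67.5 and 42.3 CPM and the mutants 127.7 and 89.4 CPM. In MPP4 the controls had 34.7, 12.5, 51.6 and 102 CPM and the mutants 63.2, 111.7, 149 and 84.3 CPM. The HSC groups lay on top of each other. The fitted difference was 0.15 ± 0.31 (log2, SE) in HSC, 0.92 ± 0.31 in MPP1 and 1.29 ± 0.51 in MPP4, of which 0.78 remained without the libraries rich in other lineage markers. MPP4 batch B, with 1 library per genotype, had the widest gap, 2.95, while HSC batch C had -0.18. The lowest of all 18 libraries was the control of that MPP4 batch.

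Fosl2, also called Fra-2, was the weakest of the 6, with 3 to 25 counts per library. In HSC the controls had 11.4, 6.36 and 13.5 CPM and the mutants 3.59, 12.9 and 4.95 CPM. In MPP1 the controls had 10.4 and 14.7 CPM and the mutants 7.98 and 10.4 CPM. In MPP4 the controls had 12.8, 7.13, 11.7 and 31.3 CPM and the mutants 5.06, 53.7, 10.3 and 5.73 CPM. Genotypes overlapped in every population, and the 2 highest libraries, MPP4 mutant 2 and MPP4 control 4, were also the 2 with the highest erythroid sums. It passed the filter on low counts in MPP4, where the difference was 0.02 ± 0.92 (log2, SE), or -1.16 without the libraries rich in other lineage markers, and it was not tested in HSC or MPP1. Fosl1, the remaining Fos gene and no member of the set, had 0 to 3 counts per library and was not tested in any population.

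**Figure D1:**
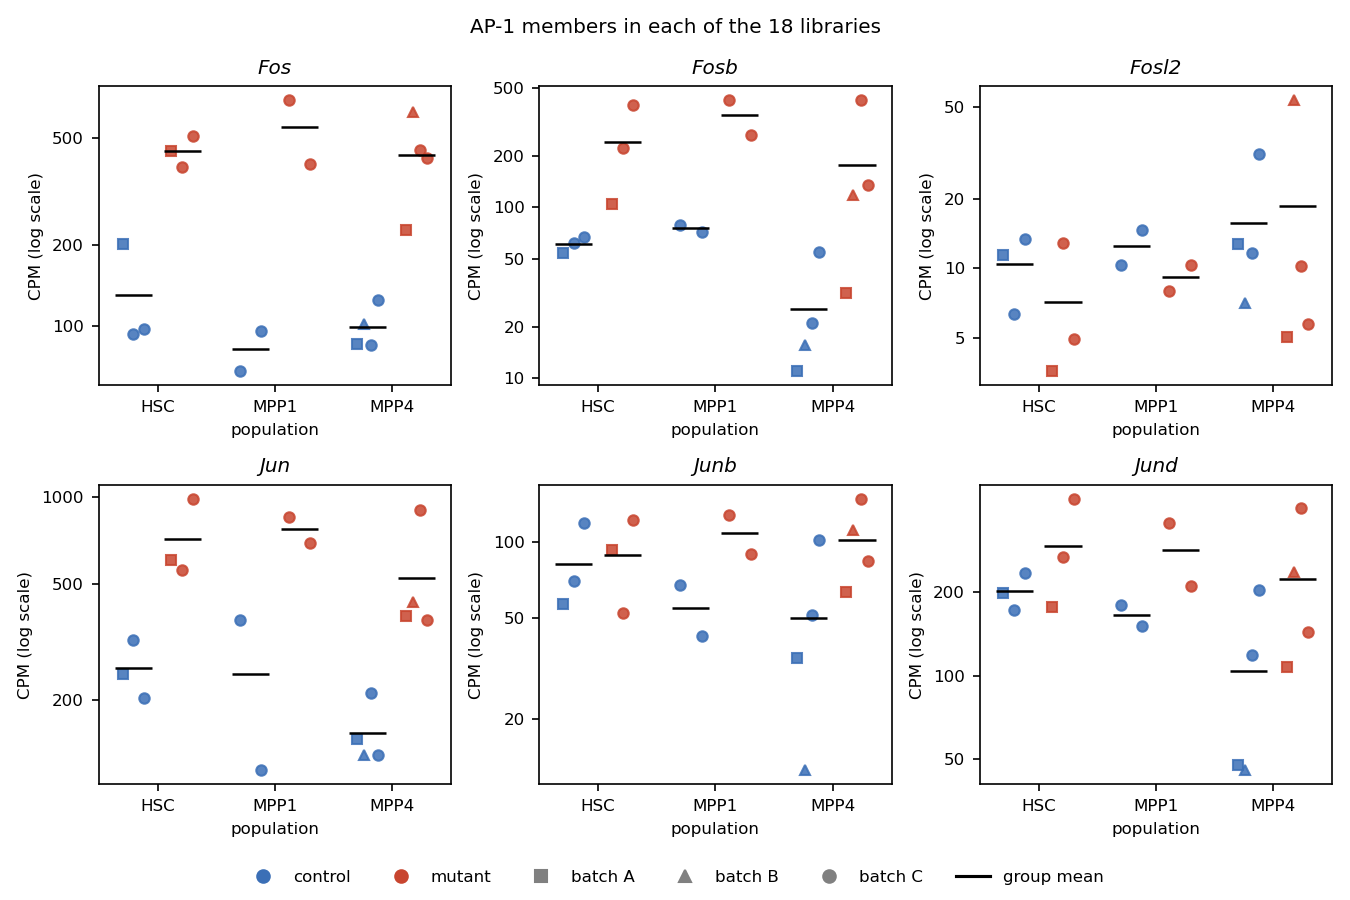
Level of each member (CPM, log scale) in every library, by population and genotype; points are libraries, their shape the sequencing batch, and bars the group mean. The 9 mutant libraries of Fos and Jun lie above all 9 controls, while both genotypes overlap for Fosl2 in every population.

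Put together, the 6 members summed to 311 to 781 CPM in the controls and 824 to 2466 CPM in the mutants. The range in HSC was 726 to 769 CPM in controls and 1435 to 2456 CPM in mutants, in MPP1 489.7 to 781 and 1672 to 2466 CPM, and in MPP4 311 to 645 and 824 to 2343 CPM. Genotypes did not overlap in this sum, which Jun and Fos make up in large part. With edgeR's quasi-likelihood test and a Benjamini-Hochberg threshold of 0.05 over all genes, 3 of 5 tested members were called in HSC (Fos, Fosb and Jun), beside 0.241% of all 9147 genes tested there. In MPP1 2 of 5 were called (Fos and Fosb), beside 0.225% of 8004 genes. In MPP4 2 of 6 were called (Fos and Jun), beside 0.0852% of 9392 genes. All these calls were higher in the mutants. Since the choice of members used this contrast, these counts are given only beside their background. The median difference over the tested members was 1.45 in HSC, 1.64 in MPP1 and 1.51 in MPP4 (log2), beside 0.01, 0.00 and 0.00 over all genes tested. In HSC, replicate number was also set as a block in place of batch. With it 3 members and 40 genes were called, against 22 genes without it. Same-numbered HSC libraries share a batch, and the labels do not state that the numbers pair them. Without the batch term 0 members were called in HSC and 1 in MPP4, beside 5 and 3 genes over all. Leaving out single MPP4 libraries gave 1 to 4 members, beside 1 to 20 genes. Genes of the joined table whose libraries did not overlap, mutants above, were 5.01% in HSC, 16.5% in MPP1 and 1.52% in MPP4, beside 3, 5 and 2 of the 6 members.

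**Figure D2:**
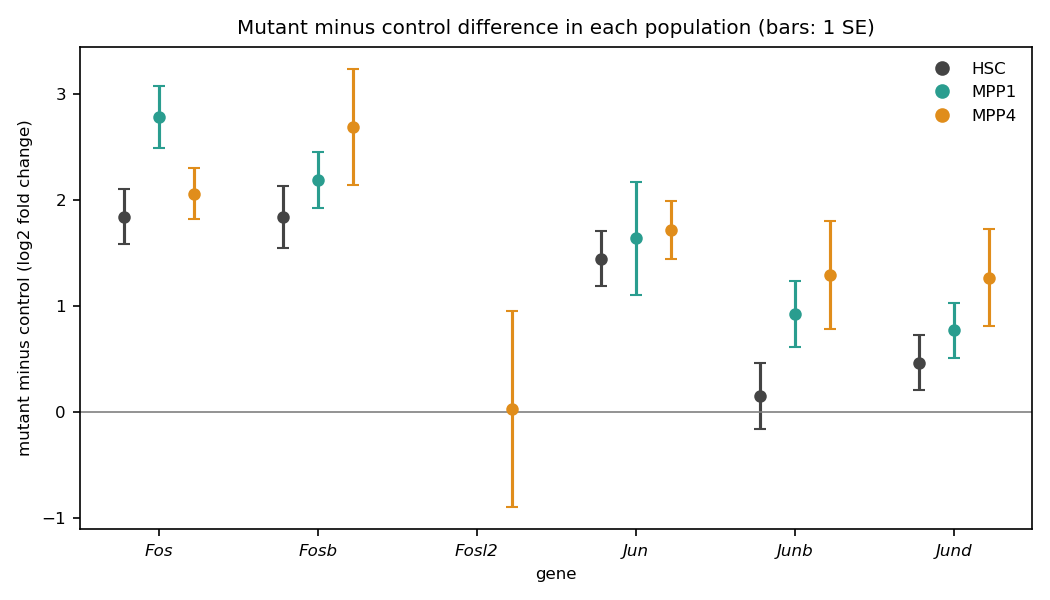
Fitted mutant-minus-control difference (log2 fold change) of each member in each population; points are estimates and bars 1 SE. Fos, Fosb and Jun lie at 1.45 or above in all 3 populations, Junb and Jund between 0.15 and 1.29, and Fosl2 was tested in MPP4 alone.

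The size of the mutant difference was set side by side between populations in a joint model that blocks on ID number. For Fos it was larger in MPP1 than in HSC by 0.63 ± 0.43 (log2, SE) and differed by 0.09 ± 0.36 between MPP4 and HSC. For Jun the 3 population pairs differed by -0.03 to 0.26 with errors from 0.29 to 0.34. For Fosb the difference was larger in MPP4 than in HSC by 0.84 ± 0.53 and than in MPP1 by 0.93 ± 0.59. Junb had its largest gap between MPP1 and HSC, 0.87 ± 0.45, and Jund between MPP4 and HSC, 0.37 ± 0.44. None of these gaps reached 2 times its error, and they were not tested because the same contrast chose the members. In the authors' deposited table the log2 fold change was 1.58, 2.14 and 1.89 for Fos in HSC, MPP1 and MPP4. The authors' deposited table gave 1.31, 0.62 and 1.45 for Jun and 1.53, 1.62 and 1.89 for Fosb. For Fos, Jun and Fosb each value was lower than that fitted here, as were those of Junb and Jund in MPP1 and MPP4. The deposited values were higher for Jund (0.51) and Junb (0.16) in HSC and for Fosl2 (0.20) in MPP4. Whether the authors shrank their fold changes is not given in the sources used here.

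Between populations the members can be tested, since the rule did not use these contrasts, though the libraries are those of the contrast that it used. Control MPP4 libraries had less Fosb and Jun than control HSC libraries, and these were the 2 members called among 6, beside 9.82% of 10613 genes called in either direction and 4.0% called lower. Fosb fell by 1.49 ± 0.43 on the log2 scale (SE, 4 against 3 libraries), from a mean of 61.0 ± 6.83 CPM (SD) in HSC to 25.6 ± 19.9 CPM in MPP4, with an adjusted p of 0.0473 in edgeR. Jun fell by 0.68 ± 0.21, from 257 ± 61.0 to 154 ± 39.01 CPM, with an adjusted p of 0.0382 in edgeR. Jund differed by -0.94 ± 0.33 (202 ± 31.0 CPM in HSC, 104 ± 74.6 CPM in MPP4; adjusted p 0.108, edgeR), Fos by -0.42 ± 0.27, Junb by -0.48 ± 0.28 and Fosl2 by 0.70 ± 0.53, and these 4 did not pass. Both calls were close to the threshold: 0 members were called without the ID number as a block, in batch C alone, or without the ID number of HSC control 1, HSC control 2 or HSC mutant 2. DESeq2 called 2 members, Fosb (adjusted p 0.00676) and Jund (adjusted p 0.0465), beside 626 genes over all. Over all genes, edgeR called 735 without the block and 738 in batch C alone.

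The direction held within ID numbers more widely than the test. Of the 6 ID numbers with a library in both populations, 3 per genotype, Jun was lower in MPP4 than in HSC in all 6, by -0.13 to -0.74 (log2 CPM), and Jund in all 6, by -0.11 to -2.01. Among all genes 9.73% were lower in all 6 ID numbers. Fosb was lower in 5 of 6, the exception being that of HSC mutant 3, at 0.10. Fos was lower in 4 of 6, Junb in 4 of 6 and Fosl2 in 1 of 6. In mutants alone, MPP4 against HSC, the fitted differences were -0.64 ± 0.31 for Fosb, -0.57 ± 0.30 for Jund and -0.44 ± 0.20 for Jun. They were -0.33 ± 0.24 for Fos, -0.20 ± 0.60 for Fosl2 and 0.13 ± 0.26 for Junb. There edgeR called 0 members, beside 12.7% of all genes, and DESeq2 called 0, beside 802 genes. An unadjusted p below the threshold was found for 1 of 6 members, Jun, beside 2447 of 10613 genes. Nothing is read from that count.

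MPP1, the population next to HSC, was not separated from it in any member. In controls the differences, MPP1 minus HSC, ran from -0.63 ± 0.32 for Junb to 0.27 ± 0.61 for Fosl2, and in mutants from -0.35 ± 0.36 for Jund to 0.23 ± 0.32 for Junb. The edgeR test called 0 members in either, with 0 below the unadjusted threshold and 0 by DESeq2, beside 0.236% of all genes in controls and 0.0471% in mutants. Over all 10613 genes, 567 in controls and 785 in mutants were below the unadjusted threshold. Between MPP4 and MPP1 edgeR also called 0 members, beside 3.58% of genes in controls and 6.2% in mutants. Fosb was the widest of them in controls, at -1.58 ± 0.47, where its unadjusted p was below the threshold, its adjusted p in edgeR was 0.103 and DESeq2 called it as the only member. Over all genes there, 1358 were below the unadjusted threshold and DESeq2 called 201. In mutants no member was below the unadjusted threshold or called by DESeq2, beside 1886 and 373 genes, respectively, and Fosb stood at -0.66 ± 0.35.

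Ordered by group mean, Fos ran from 81.6 ± 19.98 CPM (SD) in MPP1 controls through 99.1 ± 19.0 in MPP4 and 131 ± 61.9 in HSC controls to 433 ± 164 in MPP4, 449 ± 59.8 in HSC and 549 ± 209 CPM in MPP1 mutants. Neighbours in this order lay within their spread, except at the step from the controls to the mutants. For Jun the order was 154 ± 39.01 in MPP4, 246 ± 186 in MPP1 and 257 ± 61.0 CPM in HSC controls, then 526 ± 252 in MPP4, 719 ± 234 in HSC and 774 ± 109 CPM in MPP1 mutants, again with the widest step between genotypes. Fosb began at 25.6 ± 19.9 CPM in MPP4 controls, then stood at 61.0 ± 6.83 in HSC and 75.2 ± 4.81 in MPP1 controls, 177 ± 172 in MPP4, 241 ± 146 in HSC and 345 ± 114 CPM in MPP1 mutants. For Jund, MPP4 controls were lowest (104 ± 74.6 CPM) and HSC mutants highest (293 ± 131 CPM), with MPP4 mutants (222 ± 132 CPM) next to HSC controls (202 ± 31.0 CPM). Junb ran from 50.1 ± 37.9 CPM in MPP4 controls to 109 ± 27.1 CPM in MPP1 mutants, and Fosl2 from 7.14 ± 5.03 CPM in HSC mutants to 18.7 ± 23.5 CPM in MPP4 mutants, with neighbours inside their spread throughout.

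The libraries of 1 mutant ID number were high for most members wherever they occurred. That ID number, of HSC mutant 3, MPP1 mutant 1 and MPP4 mutant 3, was the highest mutant of its population in 3 of 3 populations for Fosb, Jun, Junb and Jund, and in 2 of 3 for Fos. Its Fosb level hardly moved across populations, at 396, 426 and 426 CPM. Among controls the ID number of HSC control 3, MPP1 control 2 and MPP4 control 4 was the highest of its group in 2 of 3 populations for Fos, Fosb, Junb and Jund and in 3 of 3 for Fosl2, while that of HSC control 2, MPP1 control 1 and MPP4 control 3 led in 3 of 3 for Jun. Each of the 3 libraries of the mutant ID number had the lowest total count of its group, 577629, 393504 and 398786, and the highest share of counts from mitochondrial genes, 7.96%, 9.80% and 7.72%. The control ID number of HSC control 3 also had the lowest total of its group in each population, 354642, 534476 and 373963. Its mitochondrial share, 9.69%, 7.29% and 5.69%, was the highest of its group in HSC alone. Across the 18 libraries, after removing group means, the correlation with the logarithm of the total count was -0.80 for Jund, -0.72 for Junb, -0.65 for Fosb, -0.55 for Fosl2, -0.42 for Fos and 0.03 for Jun. With the mitochondrial share it was 0.60 for Jund, 0.53 for Fosb, 0.49 for Junb, 0.43 for Jun, -0.07 for Fosl2 and -0.20 for Fos. With the erythroid sum it was 0.72 for Fosl2, 0.55 for Fos, 0.31 for Junb, 0.26 for Jund, 0.11 for Fosb and -0.41 for Jun. These correlations share their libraries, carry no test, and the part of depth or mitochondrial share in the members' levels was not tested.

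**Figure D3:**
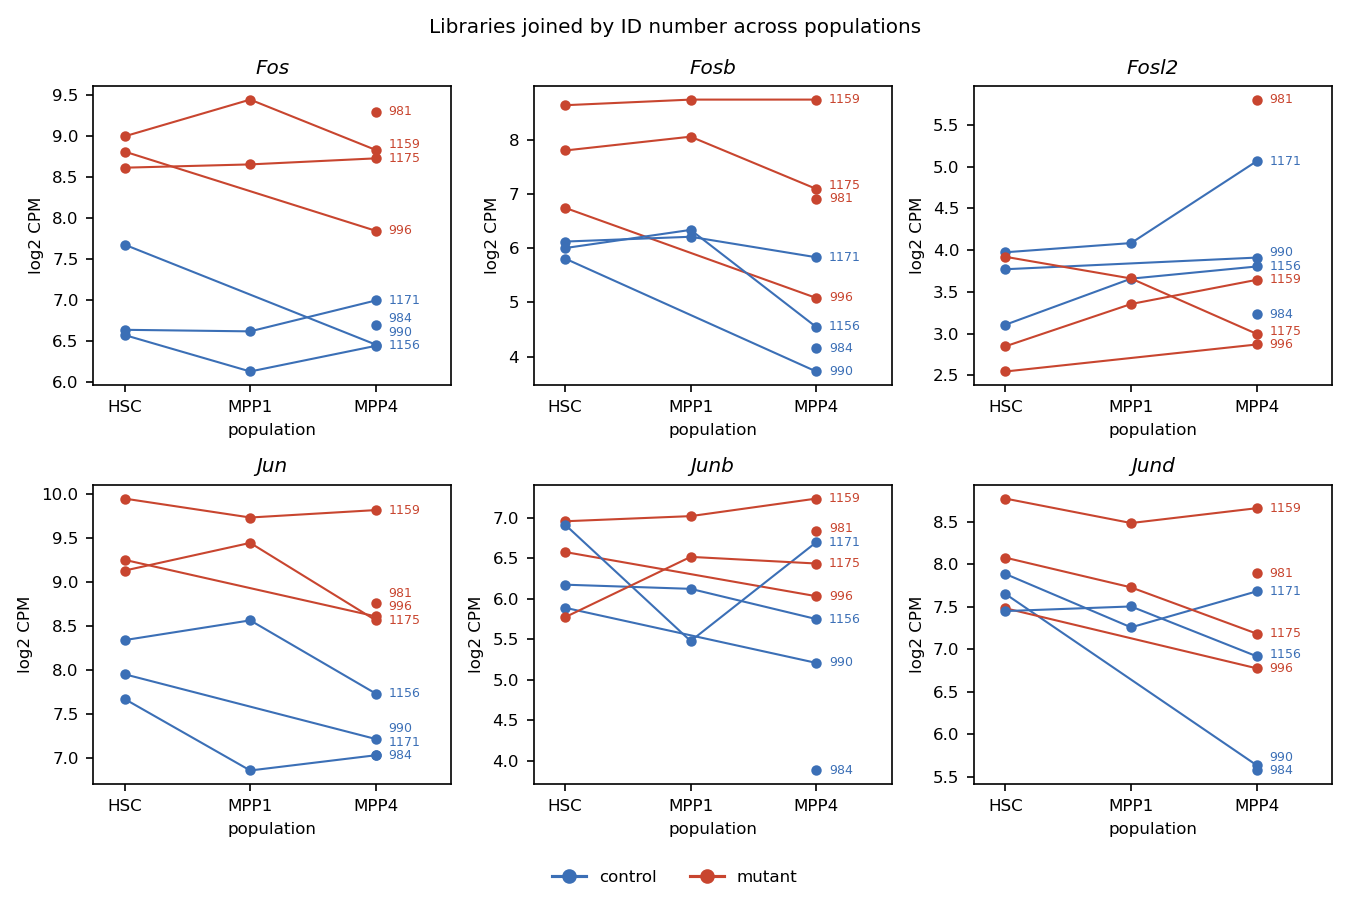
Level of each member (log2 CPM) in HSC, MPP1 and MPP4, with libraries of the same ID number joined by a line and labelled. The ID number of HSC mutant 3 is at the top of the mutants for Fosb, Jun, Junb and Jund in each population, and every joined line of Jun and Jund is lower in MPP4 than in HSC.

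The members did not move as a single block once the genotype was set aside. Mutant libraries lay above the controls for both Fos and Jun, though with nearly touching values for Jun. A correlation over all libraries would hold this genotype difference and is not given for the pair. Within the 9 controls Pearson's r of their log2 CPM was -0.17 and within the 9 mutants 0.46. Fosb and Jund followed each other more closely, with r of 0.91 in the 9 controls and 0.91 in the 9 mutants. For Junb and Jund r was 0.87 and 0.65, and for Jun and Jund 0.44 and 0.87. Fosb and Jun had 0.40 and 0.84. Fosl2 had r from -0.47 to 0.49 with the other members in controls and from -0.20 to 0.41 in mutants. With 9 libraries of 3 populations behind each value, and the same depth and composition shared by all genes of a library, these are descriptions only.

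**Figure D4:**
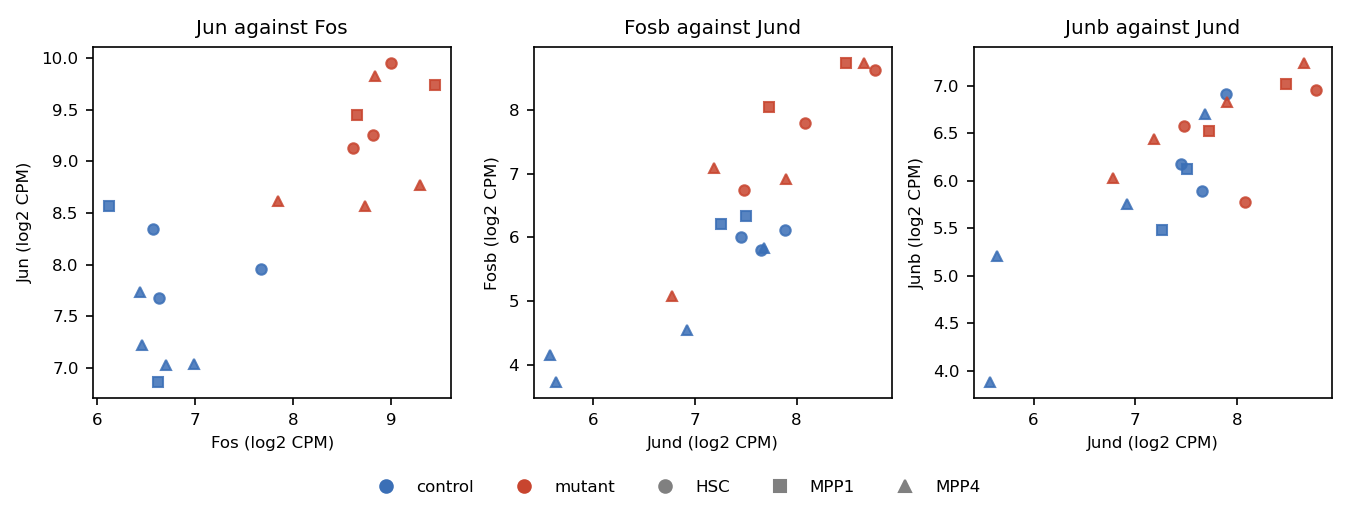
Pairs of members in the 18 libraries (log2 CPM on both axes), coloured by genotype with the population as the shape. The mutant libraries lie above the controls for Fos and, with nearly touching values, for Jun, while Fosb and Junb follow Jund along a line in both genotypes.

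Among 6402 other genes with a median count of at least 20, those nearest to the mean of the 6 standardised members were Klf6 (r 0.90 over 18 libraries), Zfp36 (0.83), Egr1 (0.81), Rhob (0.81), Dusp1 (0.80) and Klf2 (0.77). With group means removed Klf6 kept 0.92 and Klf2 0.84, whereas the other 4 lay between 0.54 and 0.73. Klf6, a zinc finger factor, was at 64.6 to 137 CPM in controls of the 3 populations and at 74.6 to 459 CPM in mutants. Zfp36 encodes tristetraprolin, which binds AU-rich elements and speeds the decay of mRNA, and was at 70.0 to 178 CPM in controls and 148 to 436 CPM in mutants. Egr1, an immediate early zinc finger factor, was at 15.2 to 158 CPM in controls and 50.6 to 561 CPM in mutants. Dusp1, a phosphatase that switches off MAP kinases, was at 43.0 to 156 CPM in controls and 87.2 to 324 CPM in mutants. Within populations Egr1 and Dusp1 did not overlap between genotypes in any of the 3. Klf6 overlapped in MPP4 alone, Zfp36 in HSC alone, Rhob in MPP1 alone, and Klf2 in HSC and MPP4. Over all genes, mutants lay wholly above controls in 5.01% in HSC, 16.5% in MPP1 and 1.52% in MPP4. These 6 genes were picked for following members chosen by this contrast, so nothing is read from their order of genotypes. The genes nearest to Fos alone were Tyk2 (0.83), Zfp36 (0.80) and Klf6 (0.79), and those nearest to Jund were Rhob (0.83), Egr1 (0.81) and Akap7 (0.79). All these values over 18 libraries hold the genotype difference: with group means removed Tyk2, Zfp36 and Klf6 had 0.79, 0.53 and 0.57 with Fos, and Rhob, Egr1 and Akap7 had 0.64, 0.59 and 0.76 with Jund. None of these genes was then among the 6 nearest to Fos or to Jund, and Klf6 alone stayed among the 6 nearest to the mean of the members.

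**Figure D5:**
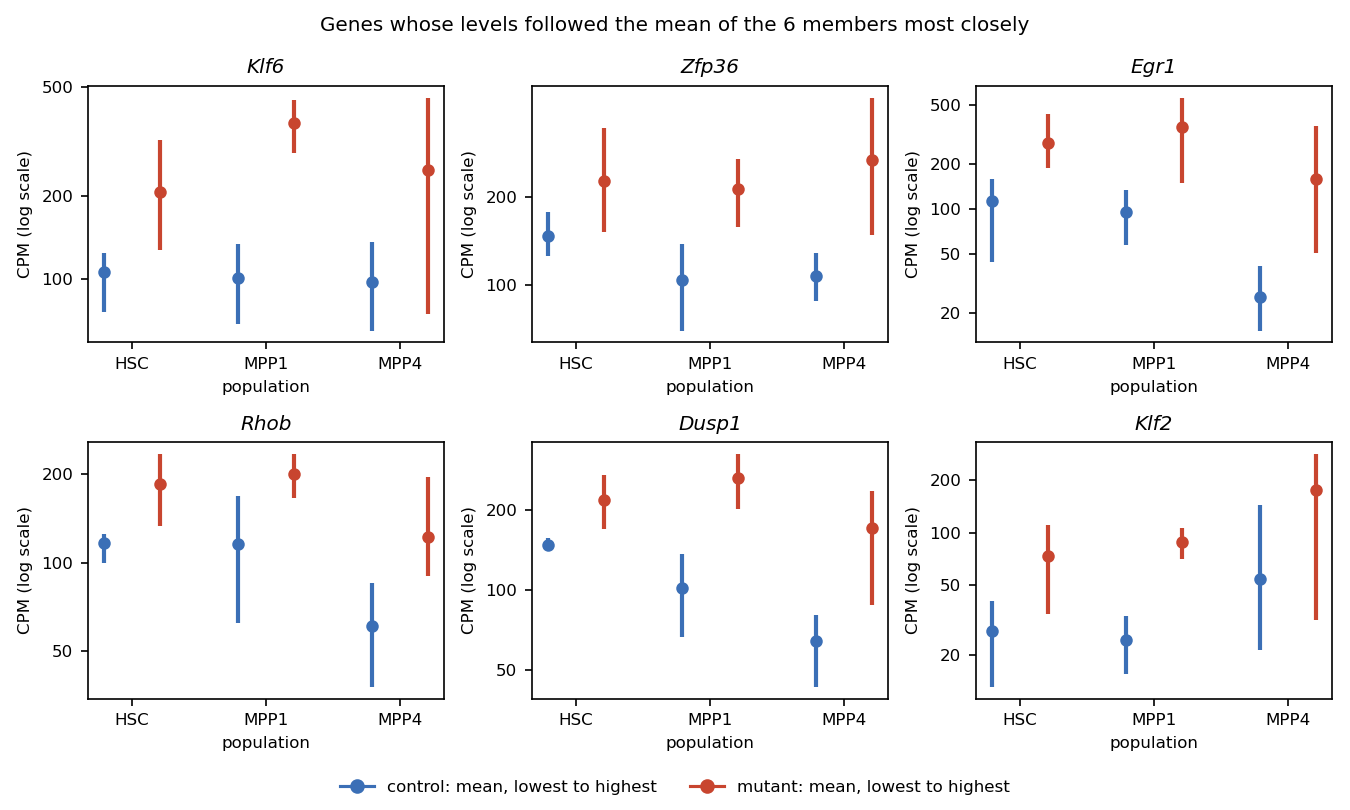
Levels (CPM, log scale) of the 6 genes nearest to the mean of the members, by population and genotype; points are group means and lines run from the lowest to the highest library. Egr1, Rhob and Dusp1 have their lowest control means in MPP4, and the long line of Klf2 in MPP4 controls reaches from 21.3 to 145 CPM.

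The rest of the pathway was described through 5 lists that were drawn up with earlier results of these libraries known. Nothing is therefore read from how many of their genes passed in mutants. As background for all 5 lists, 916 of 9147 genes in HSC, 389 of 8004 in MPP1 and 668 of 9392 in MPP4 had an unadjusted p below 0.05 in edgeR. DESeq2 called 14, 15 and 31 genes, respectively. Other AP-1 relatives and basic leucine zipper partners, 27 genes such as the Atf, Batf, Maf and Nfe2 factors, showed no call in mutants: of 19, 16 and 17 tested in HSC, MPP1 and MPP4, edgeR called 0, with 0, 1 and 3 below an unadjusted p of 0.05 and 0 by DESeq2. The MAP kinase cascade with the factors of the Fos and Jun promoters, 37 genes, had 0 of 34, 31 and 35 called by edgeR, with 0, 1 and 0 below the unadjusted threshold and 0 by DESeq2. Its median difference was -0.15, 0.02 and -0.09 (log2) in HSC, MPP1 and MPP4. Negative regulators, 22 genes that include the Dusp phosphatases, the Sprouty proteins and the Zfp36 family, had 0 of 17, 15 and 15 called by edgeR, with 3, 2 and 2 below the unadjusted threshold, while DESeq2 called 0, 0 and 2.

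Of 30 AP-1 targets, 2 of 18 tested rose in HSC mutants: S100a6, a calcium-binding protein, by 1.31 ± 0.26 (log2, SE), from 52.6 to 128.5 CPM, and the cytokine Tgfb1 by 1.64 ± 0.35, from 25.2 to 74.7 CPM, beside 0.241% of all genes called. S100a6 lost its call in 7 of 14 alternatives and Tgfb1 in 9 of 14, batch C alone and the fit without a batch term among them for both. The calls were 0 of 16 in MPP1 and 0 of 15 in MPP4 by edgeR, with 3 and 3 below the unadjusted threshold and 0 by DESeq2, which called 1 in HSC. The background counts over all genes are those given above. Other immediate early genes, 32 in all, rose in 4 of 20 cases in HSC mutants and 3 of 17 in MPP1 mutants, with 0 lower, beside 0.241% and 0.225% of all genes. In HSC they included the chaperone Hspa1b (4.53 ± 0.61, from 1.98 to 37.9 CPM), Klf4 (2.06 ± 0.43) and Egr1 (1.36 ± 0.29), and in MPP1 they were Klf4 (3.48 ± 0.52), Klf6 (1.82 ± 0.30) and Klf2 (1.99 ± 0.40). In HSC the call was lost in 1 of 14 alternatives for Hspa1b, 9 for Klf4 and 7 for Egr1, and in MPP1 in 2 of 10 for Klf4, 1 for Klf6 and 5 for Klf2. In MPP4 edgeR called 0 of 21, with 4 below the unadjusted threshold and 1 by DESeq2, although 19 of 21 were higher in mutants and their median was 0.71 (log2) beside 0.00 over all genes. The list was drawn up with earlier results of these libraries known, so nothing is read from these counts or this median. The summed level of this list was 1154 to 1744 CPM in controls and 1116 to 3297 CPM in mutants, with MPP4 mutant 1 below all 4 MPP4 controls.

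Between control populations genes of the same lists were called in both directions, beside 9.82% of all genes called in MPP4 against HSC, with 4.0% of all genes lower. Of 10613 genes, 618 were called higher and 424 lower. The list counts below are given beside these shares, and no change of a list as a whole is read from them. In MPP4 against HSC, 2 of 22 leucine zipper partners fell, Nfe2, a factor of the megakaryocyte and erythroid line, with a difference of -1.14 ± 0.18 (log2, SE) and Mafg with -0.75 ± 0.21, and 0 rose. In the MAP kinase list 2 of 35 rose, Map3k5 by 1.16 ± 0.32 and Mef2c by 0.66 ± 0.20. Of 18 negative regulators Dusp5 rose by 1.46 ± 0.42 and Dusp1 fell by 1.31 ± 0.22. Of 20 targets 5 rose and 2 fell, among them the adhesion receptor Cd44, higher by 0.93 ± 0.18, and the metallothionein Mt1, which fell by 3.56 ± 0.44. The metallothionein Mt2 stood at 34.9 ± 36.2 CPM (SD) in HSC controls and 0.264 CPM on average in MPP4 controls. Of 25 other immediate early genes 2 rose and 4 fell, including Ppp1r15a with a difference of -2.13 ± 0.25, Egr1 with -2.01 ± 0.31 and Ier2 with -0.84 ± 0.20. Of 15 alternatives, Mef2c lost its call in 7, Mafg in 6, Map3k5 and Dusp5 in 4 each, Ier2 in 3, and Dusp1, Cd44 and Egr1 in 1 each. In MPP1 against HSC controls the lists gave 1 call, beside 0.236% of all genes. This was the metalloprotease Mmp9, at 0 CPM in every HSC control and 45.1 ± 63.8 CPM (SD) in MPP1 controls, where the value came from control 2, the library rich in neutrophil markers.

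AU-rich elements in the 3′ untranslated region are known to shorten the life of these transcripts. The letters ATTTA occurred 4 times in the 815 bases of that region of Fos, in the longest annotated GENCODE form, 4 times in 1233 bases of Jun, 2 times in 485 bases of Junb, 1 time each in 2305 bases of Fosb and 533 bases of Jund, and 8 times in 4653 bases of Fosl2. Regions within 20% of the same length had a median of 1 in the case of Fos, 2 for Jun, 0 for Junb, 4 for Fosb, 1 for Jund and 8 for Fosl2. Fos alone of the 6 held the overlapping form ATTTATTTA, found in 3.16% of regions of its length. All 3 Jun genes overlap a gene on the other strand: Jun overlaps Junos by 689 bases, Junb overlaps Prdx2 by 351 bases, and Jund overlaps Gm11175 by 919 bases. Whether the counting used the strand is not given in the sources used here, so counts of these pairs could be mixed. Junos was at 0 to 7.69 CPM and Gm11175 at 0 to 1.26 CPM, far below their partners, whereas Prdx2, a peroxiredoxin abundant in red cells, was at 99.3 to 798 CPM, above Junb in most libraries, with r of -0.09 between the pair.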

How the data were processed

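Sorted HSC, MPP1 and MPP4 of Dnmt1 mutant and control mice were profiled by CEL-Seq2 in 18 libraries of 3 sequencing batches. The deposited tables hold estimated counts, whole numbers per gene symbol to which the authors applied a correction for molecules that share a tag: all 1557 high values below the ceiling of 36909 lay on the grid of that correction for 4096 tags of 6 bases, and at the highest member count, 679, it adds 8.52%. The build was mm10 and the tools R 3.4.0 and DESeq2, per the submitters' processing notes, and which aligner, counter or annotation was used is not stated in the labels or headers. DESeq2 tables deposited by the authors give, per the file headers, a mean normalised signal, log2 fold changes with errors, a test score and p-values, and log2 fold changes alone were used.

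Mutants and controls were compared per population with edgeR 4.0.16 (R 4.3.3; TMM, robust quasi-likelihood test, filterByExpr with a minimum count of 10), with batch as a term in HSC and MPP4. Populations were compared in a joint fit that blocks on ID number. Adjusted p-values are Benjamini-Hochberg over all genes tested, with a threshold of 0.05. CPM used TMM over the joined table, and log2 CPM a prior count of 2. The scripts were tested on simulated data. Alternatives were RLE size factors, DESeq2 1.42.0, other filters, other model terms, batch C alone and each library or ID number left out. The 3000 CPM limit for libraries rich in markers of other lineages, and the fits without them, were chosen after seeing the data.

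Members and gene lists were chosen with earlier results of these data known. Named were all members, Fosl1, up to 3 called genes per list and comparison with the smallest adjusted p, and the genes nearest in pattern. Same-numbered HSC libraries deviated from their group means together (r 0.46, 0.22 and 0.20). They also share a batch, so a pairing by number cannot be told apart from batch. Same-numbered libraries of the genotypes do not join the same ID numbers in every population, and the labels state no pairing. Libraries of 1 ID number in different populations had r of 0.067 to 0.42. Whether libraries come from separate animals is not in the labels, and the p-values rest on library-to-library spread that may be technical. No pair of libraries of a group agreed within counting noise (chi-square per degree of freedom 3.45 to 83.4). Promoters are RefSeq sequences on GRCm38.p6, and positions are from GENCODE M21 on GRCm38. Columns that match no labelled sample numbered 0.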

Additional observations from a re-analysis of the deposited data

Results flagged for a closer look

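Each of the 6 members and their sum were looked at in the 4 MPP4 control and the 4 MPP4 mutant libraries, 14 looks in all. In 2 of these, 1 library stood apart from the other 3 by more of the group's range than Dixon's limit allows. Chance gives about 1 in 20 for a single look, but the 14 looks share the same libraries and are not independent. Fosl2 was at 53.7 CPM in MPP4 mutant 2, against 5.06 to 10.3 CPM in the other MPP4 mutants, and this library had the highest erythroid and neutrophil marker sums of all 18. Jun was at 903 CPM in MPP4 mutant 3, against 378 to 434 CPM in the other MPP4 mutants, and this library had 12197 CPM of B cell markers and the lowest total count of its group. The part of these markers or of depth in either value was not tested.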

How the results depend on the processing

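Of 1518 alternative log2 differences, 1247 kept direction and side of the threshold, 200 lost and 25 gained a call, and 46 reversed. These pool the members with the list genes named for being called, which could lose a call but not gain one. The shares are therefore not those of the members alone. The causes were not tested. Members called in mutants were 1 in each population with the spread shared over all libraries; in HSC 0 without the batch term; and in MPP4 5 with no filter, 1 without the batch term, 1 in batch C alone and 1 to 4 with a replicate left out. In MPP4 against HSC controls, members called were 1 with RLE size factors (1030 genes over all), 1 with the stricter filter (911) and 1 without libraries rich in other markers (613). They were 0 in batch C alone (738 genes over all), 0 without the ID number as a block (735) and 0 to 2 with an ID number left out (460 to 1158). In MPP4 against HSC mutants they were 1 with no filter (1328 genes over all), 1 without the marker-rich libraries (855) and 0 to 1 with an ID number left out (722 to 1533). In MPP4 against MPP1 controls they were 1 with DESeq2 (201 genes over all), 1 with no filter (447) and 1 in batch C alone (425). There they were also 1 without the marker-rich libraries (471) and 0 to 1 with an ID number left out (64 to 466).

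Reversed mutant differences were those of Junb in HSC (-0.10 in batch C alone, -0.15 to 0.53 with a replicate left out) and Fosl2 in MPP4 (-0.30 with DESeq2, -0.054 with no filter, -0.034 with the replicate block, -0.023 with the shared spread, -1.16 without the marker-rich libraries, -1.34 to 0.53 with a replicate left out). Without the ID number as a block, reversals were Fosb in MPP1 against HSC controls (-0.22). Further such reversals were Junb in MPP4 against MPP1 controls (-0.14) and mutants (0.24), and Fosl2 in MPP4 against HSC (0.62) and MPP1 mutants (0.40). Without the marker-rich libraries they were Jun (0.23) and Jund (0.055) in MPP1 against HSC controls, Fosl2 in MPP1 against HSC mutants (-0.0045), Fos in MPP4 against HSC mutants (0.24), and Junb in MPP4 against MPP1 controls (-0.37) and mutants (0.15). In batch C alone they were Fos in MPP4 against HSC controls (0.086) and Junb in MPP4 against MPP1 mutants (0.059). In MPP1 against HSC mutants, Fosb had -0.015 with DESeq2 and -0.027 with no filter, and Jun -0.012 with no filter.

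With an ID number left out, MPP1 against HSC controls ran from -0.31 to 0.24 for Fosb, -0.19 to 0.48 for Fosl2 and -0.83 to 0.19 for Jun; mutants from -0.25 to 0.27 for Fos, -0.27 to 0.19 for Fosb, -0.078 to 0.52 for Fosl2, -0.34 to 0.30 for Jun and -0.14 to 0.43 for Junb. MPP4 against HSC ran from -0.70 to 0.089 for Fos in controls, and from -0.57 to 0.73 for Fosl2 and -0.15 to 0.48 for Junb in mutants. MPP4 against MPP1 ran from -0.11 to 0.36 for Fos, -0.87 to 0.13 for Jun and -0.45 to 1.10 for Junb in controls, and from -0.49 to 0.21 for Fosl2, -0.33 to 0.060 for Junb and -0.49 to 0.018 for Jund in mutants.

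Over all genes, calls in HSC mutants were 22, with 14 by DESeq2, 83 higher and 29 lower with no filter, 40 with the replicate block, 9 with the shared spread, 5 without the batch term and 13 to 83 with a replicate left out. In MPP1 mutants they were 18, with 41 with no filter, 43 with the replicate block, 4 with the shared spread and 23 to 75 with a replicate left out. In MPP4 mutants they were 8, with 31 by DESeq2, 88 with no filter, 17 with the shared spread and 3 without the batch term. They were 26 without the marker-rich libraries, 11 with the replicate block and 1 to 20 with a replicate left out. Same-numbered libraries of the genotypes there had r of -0.11 to 0.33.

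MPP1 against HSC controls gave 25 calls, with 10 by DESeq2 and 71 with no filter. It gave 3 without the ID number as a block and 50 without the marker-rich libraries. Mutants gave 5, 14, 29, 0 and 98 in the same order, with 20 in batch C alone. MPP4 against HSC gave 1042 calls in controls (626 by DESeq2, 613 without the marker-rich libraries, 460 to 1158 with an ID number left out) and 1348 in mutants (802, 855 and 722 to 1533; 891 without the block). MPP4 against MPP1 gave 380 in controls (201 by DESeq2, 220.0 without the block, 64 to 466 with an ID number left out) and 658 in mutants (373, 413 and 152 to 779). With 3 to 25 counts per library, depth limits Fosl2 most.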
